A study of Mus musculus with 2 samples.

Results

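Splenic CD8 T cells rich in granzyme K transcripts were compared with cells in which none was found. Cells were chosen by their own Gzmk count: of 10387 barcodes in 1 single-cell RNA library, 4801 had at least 2000 UMIs (unique molecular identifiers, each standing for 1 captured transcript) and under 20% of them from mt- genes. Among these, 1111 cells with 2 or more Gzmk UMIs formed the high class, 2778 cells with 0 formed the undetected class, and 912 cells with 1 lay between them. The comparison was repeated outside the TRB family that joins TRBV15 to TRBJ1-1, which had been set aside because it is rich in Gzmk, leaving 287 high and 1090 undetected cells with a productive TRB chain. A TRB family here means cells that share the amino acid sequence of the third complementarity-determining region (CDR3) of the T cell receptor β chain.

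The cells are called GD2TIF: Cas9-transgenic mouse T cells, activated, then infected with a retrovirus that targets Bcor and Zc3h12a (the gene for Regnase-1, which degrades mRNA) and delivers a chimeric antigen receptor against the ganglioside GD2, built on the antibody 14g2a. They were given to immunocompetent C57BL/6 mice at 1000000 cells per mouse, and CD8+Thy1.1+ cells were sorted from spleen 2 months later for a Singleron microwell RNA library and a T cell receptor library. Both classes come from the same edited and transduced cell product, editing was not measured per cell, no unedited or earlier group is part of the comparison, and the number of mice pooled, their age and sex are not given. Differences between TRB families cannot be told apart from differences between mice.

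Granzyme K is a tryptase-like serine protease stored in the cytotoxic granules of T and NK cells. In mouse and human CD8 T cells it marks memory and early exhausted states more than terminal killers, which carry granzymes A and B and perforin, and it has been reported to cleave the complement proteins C2 and C4. The Eomes and T-bet transcription factors drive granule genes, while TCF-1 (Tcf7), LEF-1 and Id3 hold cells in a stem-like state from which effector and exhausted cells arise.

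With 1 library of each kind there is no replicate. Cells are not replicates, so no test was made, and the 95% intervals given in parentheses (Clopper-Pearson for shares, exact Poisson for levels, exact conditional for ratios of levels) cover counting error only. A level is the UMIs of a gene summed over a class, per 1000000 UMIs of that class (CPM). Of the 4559 barcodes with a productive TRB in the receptor library, 4129 were among those of the RNA library, 2230 of them in the 4801 cells. High cells were somewhat deeper, with a median of 2788 UMIs against 2573, and had 18.9% ribosomal protein UMIs against 20.5%. All 1111 high cells and 2775 of 2778 undetected cells had at least 2 of 8 T cell markers. At least 2 of 8 B cell markers were found in 28 high cells (2.52%) and in 63 undetected cells (2.27%). Natural killer markers summed to 4.77 CPM in high and 8.84 CPM in undetected cells, with Ncr1, Klrb1c and Klra4 at 0 in high cells. Outside the family the natural killer sums were 8.48 and 3.52 CPM, on 8 and 11 UMIs. Erythroid markers summed to 8.43 CPM in high and 405.5 CPM in undetected cells, and to 11.7 and 1019 CPM outside. Over all cells, 1 high and 6 undetected cells had at least 2 erythroid markers. At least 2 of 6 CD4 and regulatory T cell markers, a list that includes Ctla4, were found in 17.9% of high and 7.70% of undetected cells, and in 10.5% and 7.80% outside the family, with Cd4 and Foxp3 at 0 in high cells. At least 2 of 10 effector CD8 markers were found in 36.4% of high cells and 19.9% of undetected cells. The part of depth, B cell RNA and effector-rich cells in the results was not tested beyond the values given beside them.

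The number of Gzmk transcripts per cell was spread widely. It averaged 1.02 UMIs over the 4801 cells with a variance 3.24 times the mean, and 2.51 times after each cell was thinned to 2000 UMIs. Just inside the threshold lay 463 cells with exactly 2 UMIs, and just outside it the 912 cells with 1. The largest count in a cell was 21. High cells made up 23.1% of the population (22.0 to 24.4) and, with cells thinned to 2000 UMIs, 16.5% (15.4 to 17.5). Among the 1984 shallowest cells, with a median of 2224 UMIs, the share was 19.6%, and among the 631 deepest, with a median of 4788, it was 33.4%, so class membership depended on depth. As a gauge of free RNA, 2 of 22 barcodes with at least 3 B cell markers had a Gzmk UMI (9.09%, 1.12 to 29.2), at a median of 2134 UMIs, against 42.1% of the 4801 cells at a median of 2637. These 2 held 8 Gzmk UMIs between them, and 1 of them had 2 or more. Whether they also hold a T cell was not tested, which limits the gauge. None of the 6 barcodes with at least 3 B cell markers and at most 1 T cell marker UMI had a Gzmk UMI. With so few barcodes the interval runs from 0 to 45.9%.

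Gzmk-high cells were concentrated in a few TRB families. The following CDR3 nucleotide sequences, read 5′ to 3′ from the deposited receptor contigs, are shown because they label the pair of families richest in Gzmk, the pair poorest in it, and a TRBJ1-1 family with a low share. Capitals mark the 18 bases at the end of the CDR3 that the 3 TRBJ1-1 families share.
TRBV15/TRBJ1-1: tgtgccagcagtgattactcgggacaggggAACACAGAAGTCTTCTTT
TRBV17/TRBJ1-1: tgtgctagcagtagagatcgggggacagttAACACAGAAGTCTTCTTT
TRBV29/TRBJ1-1: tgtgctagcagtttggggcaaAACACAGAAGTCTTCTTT
TRBV14/TRBJ1-4: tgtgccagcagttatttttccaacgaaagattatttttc
TRBV13-3/TRBJ2-1: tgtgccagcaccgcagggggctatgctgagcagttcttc

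Cells were assigned to the family of their TRB chain with the most contig UMIs. In the TRBV15/TRBJ1-1 family, 290 of 493 cells were Gzmk-high (58.8%, 54.3 to 63.2). In the TRBV17/TRBJ1-1 family 56 of 120 were (46.7%, 37.5 to 56.0), and in the TRBV17/TRBJ2-7 family 13 of 40 (32.5%, 18.6 to 49.1). The second largest family, whose contigs are annotated TRBV12-2 and TRBV13-2 with TRBJ2-3, had 104 of 484 (21.5%, 17.9 to 25.4). The TRBV29/TRBJ1-1 family, which ends in the same capitals as the richest pair, had 14 of 124 (11.3%, 6.31 to 18.2). Lowest were TRBV14/TRBJ1-4 with 2 of 59 (3.39%, 0.413 to 11.7) and TRBV13-3/TRBJ2-1 with 1 of 63 (1.59%, 0.0402 to 8.53). The families thus ran from nearly no high cells to a majority, and the shared TRBJ1-1 end did not go with a single share. Thinning lowered the shares to 48.1% and 30.8% in the richest pair and to 4.03% in the TRBV29/TRBJ1-1 family, and TRBV15/TRBJ1-1 stayed the highest. The thinned share of TRBV17/TRBJ2-7 was 25% (12.7 to 41.2), with an interval that held the 30.8% of TRBV17/TRBJ1-1.

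**Figure D1:**
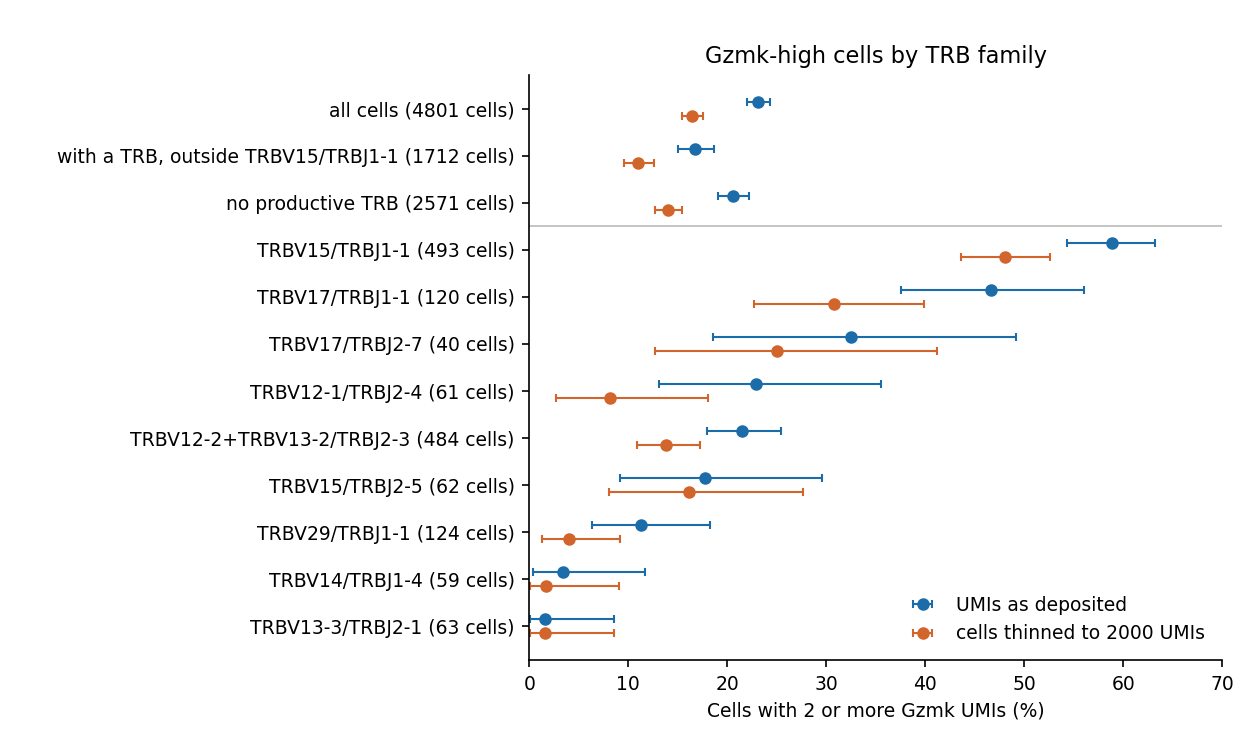
Share of cells with 2 or more Gzmk UMIs (x axis, percent) in all cells, cells without a TRB, cells with a TRB outside the TRBV15/TRBJ1-1 family, and each TRB family of at least 40 cells; points are shares from UMIs as deposited (blue) and from cells thinned to 2000 UMIs (orange), and bars are 95% Clopper-Pearson intervals. TRBV15/TRBJ1-1 at 58.8% and TRBV17/TRBJ1-1 at 46.7% have the highest shares, and TRBV14/TRBJ1-4 and TRBV13-3/TRBJ2-1 lie under 5%. The interval of TRBV17/TRBJ1-1 overlaps that of TRBV17/TRBJ2-7 at 32.5%.

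The high class was also less diverse in its receptors. Its 582 cells with a TRB fell into 63 families, and the inverse Simpson number (the number of equally large families that would give the same chance of drawing a pair from the same family) was 3.42. The 1209 undetected cells with a TRB fell into 203 families with an inverse Simpson number of 14.3. Without the TRBV15/TRBJ1-1 family the numbers were 5.76 over 292 high cells and 13.3 over 1104 undetected cells. High cells were 14.7% of the cells from families of 1 or 2 barcodes (9.83 to 20.8), 9.45% of those from families of 3 to 39 (6.71 to 12.8), and 19.5% of those from larger families other than TRBV15/TRBJ1-1 (17.3 to 21.9).

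Genes with at least 200 UMIs over both classes were ranked by ratio over all cells, and rarer genes such as Gzma are given below. Highest in the Gzmk-high class were Osr2, a zinc finger transcription factor, and Esm1. Esm1 is a secreted proteoglycan best known from endothelium and encoded beside Gzmk. Osr2 stood at 163 CPM (580 UMIs) against 15.9 CPM (128 UMIs), a ratio of 10.2 (8.43 to 12.5). Esm1 stood at 93.2 against 9.83 CPM, a ratio of 9.48 (7.40 to 12.3). Next came Mvd, an enzyme of the mevalonate pathway, at 139 against 19.04 CPM (7.29, 6.07 to 8.79), and the transcription factor Maf at 110 against 25.3 CPM (4.33, 3.65 to 5.16). Others among the 15 highest were Ctla2a, Car2, Coch, Cybb, Ccl3, Adam19, Ccl5, Ccl4, Coq8a and Slc16a11, at ratios from 2.93 to 4.31. Of 6626 genes with at least 200 UMIs over both classes, 142 (2.14%) were at least 1.5-fold higher in Gzmk-high cells and 100 (1.51%) at least 1.5-fold lower. "Called" below means past that fold on at least 200 UMIs.

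Genes lowest in the high class, again of at least 200 UMIs, were H2-Aa and Cd74, which serve antigen presentation by MHC class II. After them came the chromatin organiser Satb1, Bbs9, Dapl1, Prg4, Gsn, Lap3, Prss12 and Xcr1. The class II genes came from few cells: 1205 of the 1311 Cd74 UMIs in undetected cells lay in the 63 cells with at least 2 B cell markers. Without those cells, and the 28 such high cells, Cd74 stood at 6.65 CPM in high and 13.6 CPM in undetected cells, against 6.46 and 163 CPM with them; outside the TRBV15/TRBJ1-1 family the Cd74 ratio was 0.871 without such cells and 0.184 with them. Satb1, by contrast, stood at 6.18 CPM (22 UMIs) in high and 25.1 CPM (202 UMIs) in undetected cells, a ratio of 0.246 (0.151 to 0.382).

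Outside the TRBV15/TRBJ1-1 family the same ranking, of genes with at least 200 UMIs, was led by Ccl5, a chemokine stored by memory and effector CD8 T cells. Osr2, Esm1 and Gzma, under 200 UMIs there, had larger ratios and are given below. Ccl5 stood at 3223 CPM in high and 586 CPM in undetected cells, a ratio of 5.50 (5.19 to 5.83). With each TRB family given equal weight its ratio was 2.42. Equal weight, here and below, covers only families with at least 15 cells in each class. These were 2 outside the TRBV15/TRBJ1-1 family, TRBV17/TRBJ1-1 among them, and 3 over all cells. Interferon-inducible GTPases followed: Iigp1 at 99.6 against 39.1 CPM (2.55, 1.93 to 3.36) and Igtp at 209 against 103 CPM (2.02, 1.69 to 2.42). Of the Igtp UMIs in high cells, 128 were found in the TRBV17/TRBJ1-1 family, without which its ratio was 1.15; within the TRBV12-2 and TRBV13-2/TRBJ2-3 family it was 0.836 (0.591 to 1.166). The lymphocyte surface protein gene Cd7 stood at 317 against 169 CPM (1.87, 1.62 to 2.16), and Ezh2, the methyltransferase of Polycomb complex 2, at 116 against 64.1 CPM (1.80, 1.42 to 2.29). With cells thinned to 2000 UMIs the Ezh2 ratio was 1.055, and with each TRB family given equal weight Iigp1 was at 1.37 and Cd7 at 1.05, all under the fold. Others among the 15 highest were Rnh1, Ctla2a, Baiap3, Dut, Gbp4, Suz12, Rbm17, Ccndbp1 and Ndufs5, at ratios from 1.64 to 1.77. Ctla2a turned to 0.483 with families weighted equally, with 0.183 (0.0643 to 0.465) inside the TRBV17/TRBJ1-1 family, and Gbp4 was at 1.21 without that family. Lowest in this ranking were Cd74, Slfn5, Map4k4, Arhgap26, Fam134b, Ccdc69, Prss12, Rtcb, the chemokine Xcl1 and March5, at ratios from 0.184 to 0.555. With families weighted equally, Cd74 turned to 3.30, Slfn5 to 1.90 and Prss12 to 1.47. March5 at 0.879, Fam134b at 0.795, Xcl1 at 0.754 and Map4k4 at 0.688 then fell short of the fold. Arhgap26 at 0.489, Rtcb at 0.427 and Ccdc69 at 0.231 stayed past it. Of 3345 genes counted there, 37 (1.11%) were called higher and 48 (1.43%) lower. These cells are part of the comparison over all cells, so both sets of values are given side by side and neither supports the other.

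**Figure D2:**
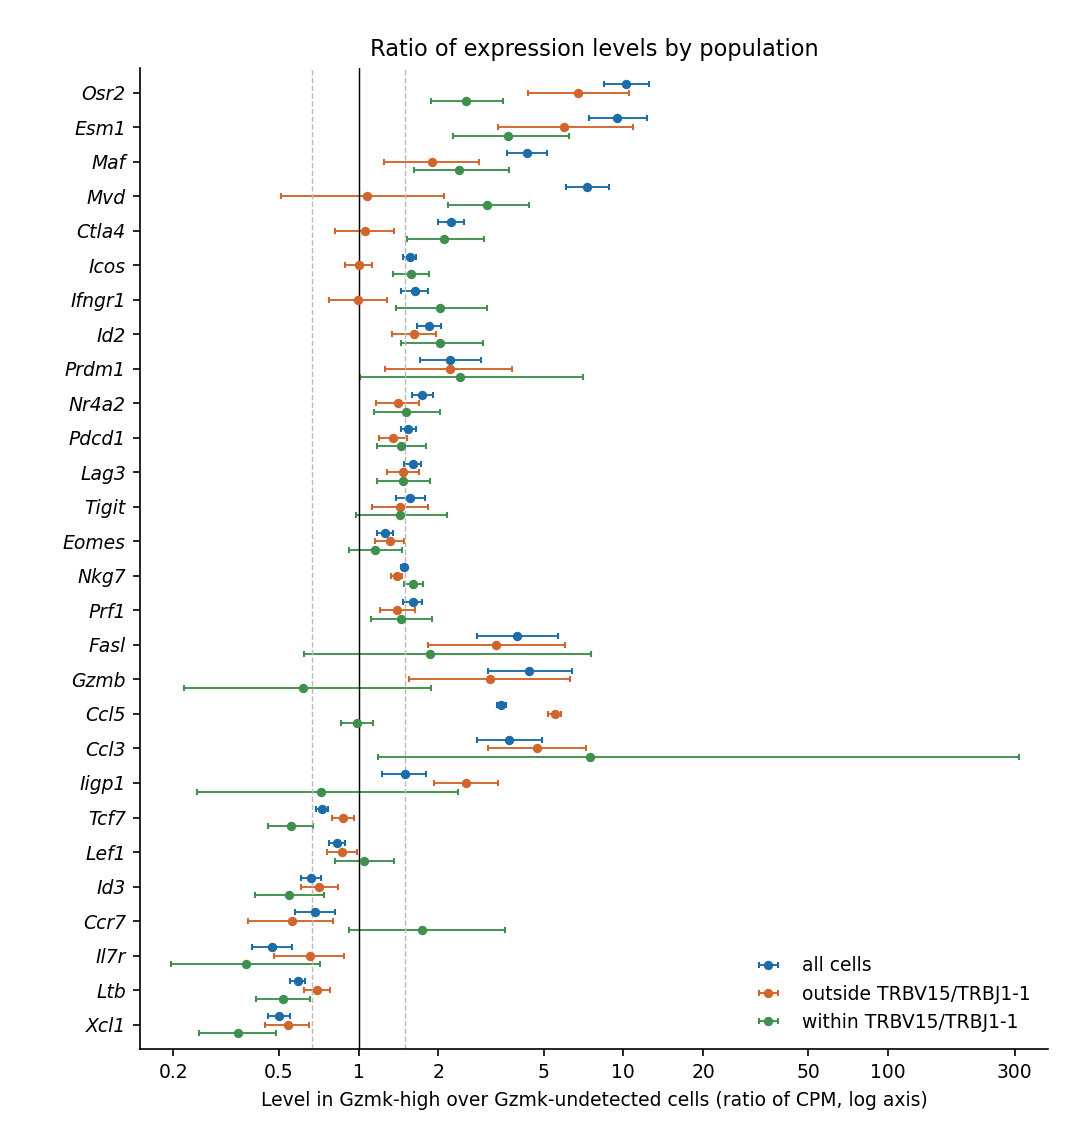
Ratio of the level in Gzmk-high cells to that in Gzmk-undetected cells (x axis, ratio of CPM on a log scale) for 28 named genes in all cells (blue), outside the TRBV15/TRBJ1-1 family (orange) and within it (green); bars are 95% exact intervals for counting error, the solid line is a ratio of 1 and the dashed lines are 1.5-fold higher and lower. Osr2, Esm1, Pdcd1 and Lag3 lie right of 1 and Xcl1 and Il7r left of it in all 3 populations, whereas Mvd, Ctla4, Icos and Ifngr1 lie near 1 outside the family.

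A set of genes high in the comparison over all cells were level, or lower in the high class, once the family was set aside. Mvd stood at 12.7 CPM in high and 11.9 CPM in undetected cells outside the family (1.07, 0.510 to 2.10). With the cells that lack a TRB added, among which the family cannot be told, Mvd was at 4.75, Ctla4 at 1.83 and Icos at 1.29. The inhibitory receptor Ctla4 had a ratio of 2.24 (1.99 to 2.51) over all cells and 1.05 (0.811 to 1.36) outside, and the costimulatory receptor Icos ratios of 1.56 (1.48 to 1.65) and 1.00 (0.885 to 1.13). For Ifngr1, a chain of the interferon-γ receptor, the ratios were 1.63 (1.45 to 1.83) and 0.999 (0.772 to 1.28). For the exhaustion factor Tox2 they were 1.88 (1.59 to 2.23) and 0.780 (0.517 to 1.15). Osr2 and Esm1 kept apart from this set: outside the family Osr2 stood at 71.0 against 10.6 CPM (67 and 33 UMIs, 6.72, 4.37 to 10.5) and Esm1 at 38.2 against 6.41 CPM (36 and 20 UMIs, 5.96, 3.36 to 10.9). Of the Osr2 UMIs in high cells, 52 were found in the TRBV17/TRBJ1-1 family, without which its ratio was 2.28, while that of Esm1 was 4.33; thinned to 2000 UMIs, the Osr2 ratio was 4.08. Neither gene reached 200 UMIs there, so neither is in the counts of called genes. Of the 20 genes that earlier results on these cells had linked to the TRBV15/TRBJ1-1 family, 12 of the 18 counted were called higher and 3 lower over all cells; 2 of 4 counted were called higher outside it. That list was chosen on the same library and is no independent evidence.

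Among granule genes with at least 200 UMIs, few differed by much. The rarer Gzma, Gzmb and Fasl were not counted and are given below. Over all cells 1 of 14 counted members of the list was called higher and 0 lower, against 2.14% and 1.51% of all genes, with a median ratio of 1.14 against 1.01 for all genes counted. Outside the family none of 13 was called in either direction, against 1.11% and 1.43%, with a median of 1.07 against 1.00. The called gene was the pore-forming perforin gene Prf1, at 277 against 173 CPM over all cells (1.60, 1.47 to 1.74) and 259 against 185 CPM outside the family (1.40, 1.20 to 1.63). Its ratio over all cells was 1.09 with each TRB family given equal weight. Nkg7, which is needed for granule release, stood at 3104 against 2088 CPM (1.49, 1.45 to 1.52) and, outside, at 3011 against 2164 CPM (1.39, 1.33 to 1.45). The proteoglycan serglycin (Srgn), which packs granule proteases, was close to level at 500 against 545 CPM.

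The other granzymes were rare in both classes. Gzmb, the apoptosis-inducing granzyme, had 94 UMIs in high and 48 in undetected cells (26.4 and 5.97 CPM, ratio 4.42, 3.09 to 6.39). Gzma had 69 and 16 UMIs (19.4 and 1.99 CPM, 9.73, 5.59 to 18.0), and 42 of the 69 came from high cells outside the TRBV15/TRBJ1-1 family, where it was found in 3.83% of high and 0.551% of undetected cells, and, with cells thinned to 2000 UMIs, in 3.48% and 0.551%. Within the family Gzma had 1 UMI in 295 high cells and 0 in 119 undetected cells. Gzmm had 15 and 24 UMIs, and Gzmc 0 and 1. The death ligand gene Fasl had 93 and 53 UMIs (3.96, 2.80 to 5.66). Since Gzma was found in 17 of 1111 high cells, nearly all had Gzmk without a detected Gzma transcript at this depth.

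Genes reported with granzyme K in other studies of CD8 T cells were partly shared. Of the 15 listed, all 15 were counted over all cells, and 4 were called higher (Pdcd1, Ccl4, Ccl5 and Slamf7) and 1 lower (Ly6c2), against 2.14% and 1.51% of all genes, with a median ratio of 1.22 against 1.01; Ccl4 turned to 0.753 without cells with at least 3 effector markers. Outside the family 1 of 14, Ccl5, was called higher and none lower, with a median of 1.21 against 1.00. Eomes, the T-box factor of memory and exhausted CD8 T cells, stood at 361 against 287 CPM (1.26, 1.174 to 1.35) and, outside, at 374 against 285 CPM (1.31, 1.16 to 1.49), an excess under the fold used for calls. Tox stood at 704 against 626 CPM and, outside, at 640 against 626 CPM. Cxcr3, Dusp2 and Itga4 had ratios from 0.981 to 1.08 over all cells.

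Transcription factors of effector and exhausted cells leaned toward the high class over all cells. Of 21 counted, 5 were called higher (Id2, Prdm1, Maf, Tox2 and Nr4a2) and none lower, against 2.14% and 1.51% of all genes, with a median ratio of 1.21 against 1.01. Outside the family 2 of 14 were called higher (Id2 and Irf8), against 1.11% of all genes, with a median of 1.02 against 1.00. Irf8 turned to 0.923 without the TRBV17/TRBJ1-1 family. Maf was not counted there for want of UMIs, and its ratio was 1.90. That ratio was 1.86 with families weighted equally, 1.56 without the TRBV17/TRBJ1-1 family and 1.38 without cells with at least 3 effector markers. Id2, which opposes E proteins and favours effector fates, stood at 190 against 103 CPM over all cells (1.85, 1.67 to 2.05) and at 172 against 106 CPM outside (1.62, 1.34 to 1.97). Outside the family, its ratio was 1.00 after cells with at least 3 effector markers were left out, and 0.986 with each family given equal weight. Prdm1 (Blimp-1), the terminal effector factor, had 115 and 117 UMIs (2.22, 1.70 to 2.89). T-bet (Tbx21) stood at 84.0 against 99.1 CPM (0.848, 0.740 to 0.969), and Batf, Nfatc1 and Egr1 had ratios from 0.981 to 1.05.

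Memory and stemness genes leaned the other way. Of 19 counted over all cells, none was called higher and 6 were called lower, among them Id3, Myb, Satb1, Il7r and Xcl1, against 2.14% higher and 1.51% lower of all genes, with a median ratio of 0.829 against 1.01. Outside the family 3 of 15 were called lower (Ccr7, Il7r and Xcl1), against 1.43% of all genes, with a median of 0.872 against 1.00. Ccr7 was not called over all cells. In TRBV15/TRBJ1-1 cells with a single TRB of at least 10 contig UMIs, a restriction described below, Ccr7 was higher in high cells. It stood there at 61.2 against 11.2 CPM, on 46 and 2 UMIs (5.49, 1.44 to 46.7), whereas Il7r was at 0.282 and Xcl1 at 0.310. The interleukin-7 receptor (Il7r), a survival receptor of memory cells, stood at 44.1 against 93.3 CPM (0.472, 0.395 to 0.562) and, outside, at 57.2 against 87.4 CPM (0.655, 0.479 to 0.879). Xcl1, a chemokine made by stem-like exhausted cells, stood at 138 against 276 CPM (0.501, 0.454 to 0.553) and, outside, at 138 against 255 CPM (0.540, 0.445 to 0.650). In cells of at least 3000 UMIs the Id3 ratio over all cells was 0.692, short of the fold; outside the family, Il7r was at 0.804 without the TRBV17/TRBJ1-1 family and Xcl1 at 0.754 with families weighted equally. Tcf7 differed less, at 493 against 679 CPM (0.727, 0.688 to 0.767) and, outside, at 588 against 675 CPM (0.872, 0.793 to 0.958). Outside, it was close to level at 0.975 without cells with at least 3 effector markers and at 0.974 without the TRBV17/TRBJ1-1 family. Over all cells Tcf7 was still found in 59.7% of high cells against 76.0% of undetected cells, and in 49.95% against 67.9% with cells thinned to 2000 UMIs. Slamf6, Bcl2 and Cxcr5 had ratios from 1.03 to 1.06.

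Some inhibitory receptors were higher in Gzmk-high cells over all cells, and none passed the fold outside the family. Over all cells 4 of 9 counted were called higher (Pdcd1, Lag3, Ctla4 and Tigit) and none lower, against 2.14% and 1.51% of all genes, with a median ratio of 1.46 against 1.01. Outside the family none of 8 was called, against 1.11% and 1.43%, with a median of 1.09 against 1.00. Pdcd1 (PD-1) stood at 460 against 298 CPM (1.54, 1.45 to 1.64) and, outside, at 418 against 310 CPM (1.35, 1.20 to 1.52). Lag3 stood at 348 against 217 CPM (1.60, 1.49 to 1.73) and, outside, at 318 against 215 CPM (1.48, 1.28 to 1.70). Its ratio outside was 1.196 with cells thinned to 2000 UMIs and 1.092 without the TRBV17/TRBJ1-1 family. With families weighted equally it was 2.43. Tigit had ratios of 1.57 (1.38 to 1.78) and 1.44 (1.13 to 1.83). These calls lay near the fold: over all cells Pdcd1 was at 1.47 and Lag3 at 1.48 without cells with at least 3 effector markers, and Tigit at 1.36 in cells of at least 3000 UMIs. The receptors of terminal exhaustion had few UMIs: Havcr2 (TIM-3) had 58 UMIs in high and 35 in undetected cells, and Entpd1 (CD39) 24 and 9. Their levels were nonetheless higher in high cells, at 16.3 against 4.36 CPM for Havcr2 (3.74, 2.42 to 5.86) and 6.74 against 1.12 CPM for Entpd1 (6.02, 2.70 to 14.7). Cd160 and Btla were level, at 0.979 and 1.02. Costimulatory receptors were mostly level too, with 1 of 8 called higher over all cells (Icos) and none of 6 outside.

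Chemokines and cytokines split. Over all cells, of 9 counted, Ccl3, Ccl4 and Ccl5 were called higher and Ltb and Xcl1 lower; outside the family, of 5 counted, Ccl5 was called higher and Xcl1 lower. Over all genes 2.14% were called higher and 1.51% lower, and outside 1.11% and 1.43%. Without cells with at least 3 effector markers Ccl3 turned to 0.858 and Ccl4 to 0.753 over all cells, and Ccl4 was at 1.11 with families weighted equally. Lymphotoxin β (Ltb) stood at 334 against 569 CPM over all cells (0.588, 0.551 to 0.627) and 395 against 568 CPM outside (0.696, 0.621 to 0.778). Interferon-γ (Ifng) stood at 128 against 98.1 CPM (1.30, 1.16 to 1.46) and, outside, at 97.5 against 89.0 CPM (1.09, 0.856 to 1.39). Tumour necrosis factor (Tnf) was rare, with 16 UMIs against 90 (0.401, 0.220 to 0.688), and Il21, the cytokine of helper T cells, had 69 against 19 (8.20, 4.87 to 14.4). Among cytokine receptors 1 of 13 counted was called higher over all cells (Ifngr1) and 2 lower (Il7r and Il18r1); outside, Il10ra was called higher and Il7r lower among 9. The shares over all genes were 2.14% and 1.51% over all cells and 1.11% and 1.43% outside. Il2rb and Il2rg, which carry the interleukin-2 and interleukin-15 signal, both had a ratio of 1.16.

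Interferon-inducible genes differed between the populations compared. Over all cells 1 of 11 counted was called higher (Isg15) and 1 lower (Ly6c2), against 2.14% and 1.51% of all genes, with a median ratio of 0.914 against 1.01; outside the family 3 of 9 were called higher, among them Iigp1 and Serpina3g, and none lower, against 1.11% and 1.43% of all genes, with a median of 1.40 against 1.00. Serpina3g, an intracellular serine protease inhibitor, stood at 43.5 against 43.9 CPM over all cells and at 83.7 against 51.6 CPM outside (1.62, 1.22 to 2.14). Without the TRBV17/TRBJ1-1 family the ratios outside were 1.71 for Iigp1 and 0.933 for Serpina3g, and with families weighted equally 1.37 and 0.915. Homing genes were nearly level: 1 of 12 counted over all cells, Cxcr6, was called higher (1.58, 1.33 to 1.87), and none of 11 outside.

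Other lists held no or few called genes. Mvd was the 1 member called among 4 counted mevalonate genes over all cells, and the other 3 had ratios from 1.01 to 1.11. None of 12 immediate early and heat shock genes, none of 10 glycolysis genes and none of 11 CD8 T cell identity genes was called over all cells. Even so, Cd3g stood at 1006 against 763 CPM (1.32, 1.26 to 1.37) and Cd3e at 1669 against 1415 CPM (1.18, 1.14 to 1.22), whereas Trac was at 0.959 and Cd8a at 0.954. None of 3 counted cell cycle genes was called. The rarer proliferation genes Mki67 and Top2a had 43 and 73 UMIs in high cells against 47 and 82 in undetected cells (ratios 2.06, 1.33 to 3.19, and 2.01, 1.45 to 2.79), and at least 2 of 6 cycling markers were found in 10 of 1111 high cells and 15 of 2778 undetected cells.

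Of the complement substrates reported for granzyme K, C2 was hardly transcribed in these cells, with 7 UMIs in high and 19 in undetected cells. The C4 gene C4b was not in the matrix and could not be measured. The complement gene C3 had 0 UMIs in both classes. The membrane regulators Cd55 and Cr1l stood at ratios of 1.02 and 1.13. Transcripts of the edited genes were found in both classes, which does not show whether they carry edits. Bcor stood at 149 against 178 CPM (0.838, 0.757 to 0.927) and, outside the family, at 175 against 184 CPM (0.9496, 0.794 to 1.13). Zc3h12a stood at 46.9 against 49.5 CPM (0.947, 0.785 to 1.14).

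Levels were also graded over cells with 0, 1, 2, 3 to 4, and 5 or more Gzmk UMIs, of which there were 2778, 912, 463, 396 and 252. Osr2 stood at 15.9, 55.3, 122, 131 and 276 CPM, Nkg7 at 2088, 2396, 2803, 2982 and 3778 CPM, and Pdcd1 at 298, 358, 371, 504 and 540 CPM. In the other direction, Tcf7 stood at 679, 618, 553, 481 and 414 CPM and Xcl1 at 276, 193, 166, 135 and 97.1 CPM. All 5 genes ran in a single direction from bin to bin, and cells with 1 UMI lay between the classes. Outside the family, over 1090, 335, 141, 104 and 42 cells, Osr2 stood at 10.6, 23.5, 47.8, 73.8 and 127 CPM and Ccl5 at 586, 873, 1861, 2722 and 7877 CPM. There Xcl1 did not run in order, with 255, 191, 121, 154 and 151 CPM, and Mvd stayed between 4.55 and 36.3 CPM on 2 to 37 UMIs a bin. Median depth also grew with the bin, from 2573 to 2959 UMIs over all cells.

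**Figure D3:**
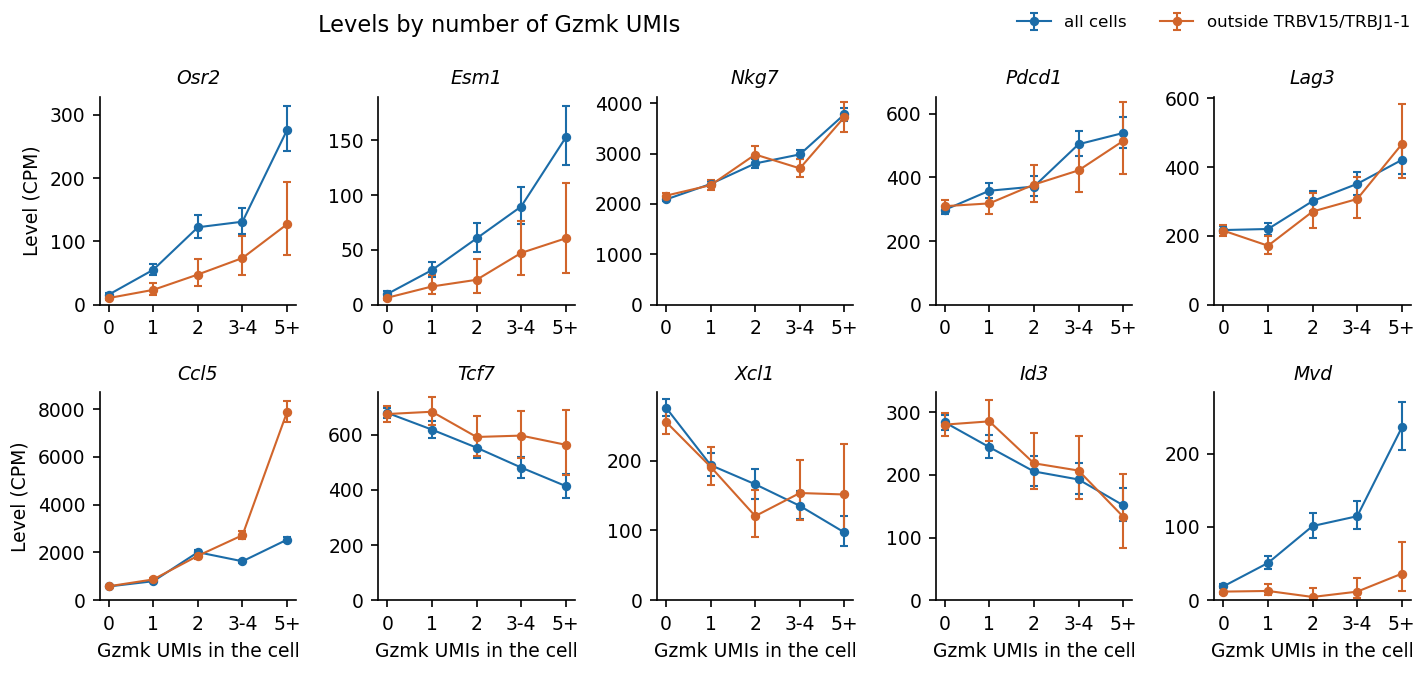
Level (y axis, CPM) of 10 genes in cells with 0, 1, 2, 3 to 4 and 5 or more Gzmk UMIs (x axis), over all cells (blue) and outside the TRBV15/TRBJ1-1 family (orange); bars are 95% exact Poisson intervals. Osr2 runs from 15.9 to 276 CPM and Tcf7 from 679 to 414 CPM over all cells, and Mvd stays below 40 CPM outside the family.

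Because families differ in Gzmk, classes were also compared within a family, where at least 15 cells fell in each class. This left 3 families: TRBV15/TRBJ1-1 with 290 high and 105 undetected cells, TRBV12-2 and TRBV13-2/TRBJ2-3 with 104 and 258, and TRBV17/TRBJ1-1 with 56 and 34. In that order Osr2 had ratios of 2.32 (1.71 to 3.21), 3.97 (1.20 to 15.1) and 3.31 (1.497 to 8.64), and Esm1 of 3.27 (2.03 to 5.56), 2.87 (1.16 to 7.31) and 7.13 (1.11 to 298.9, from 16 UMIs against 1). Pdcd1 had ratios of 1.59 (1.26 to 2.01), 1.45 (1.10 to 1.91) and 2.28 (1.35 to 4.09). These 3 genes and Nkg7 were higher in the high class of each of the 3 families, with every interval above 1. Lag3 was higher in each as well, at 1.46, 1.47 and 3.56, with an interval that reached 0.9904 in the second.

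Other genes differed from family to family. Ccl5 was level in the first pair, at 867 against 917 CPM and 209 against 221 CPM, and stood at 6046 against 1223 CPM in TRBV17/TRBJ1-1 (4.94, 4.08 to 6.04). Tcf7 had ratios of 0.585 (0.476 to 0.721), 1.15 (0.986 to 1.34) and 0.572 (0.393 to 0.835). In the TRBV12-2 and TRBV13-2/TRBJ2-3 family high cells were thus not lower in this memory gene, nor clearly so in Xcl1 at 0.880 (0.659 to 1.165) or Id3 at 0.887 (0.684 to 1.14). Whether families differ in these ratios was not tested.

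**Figure D4:**
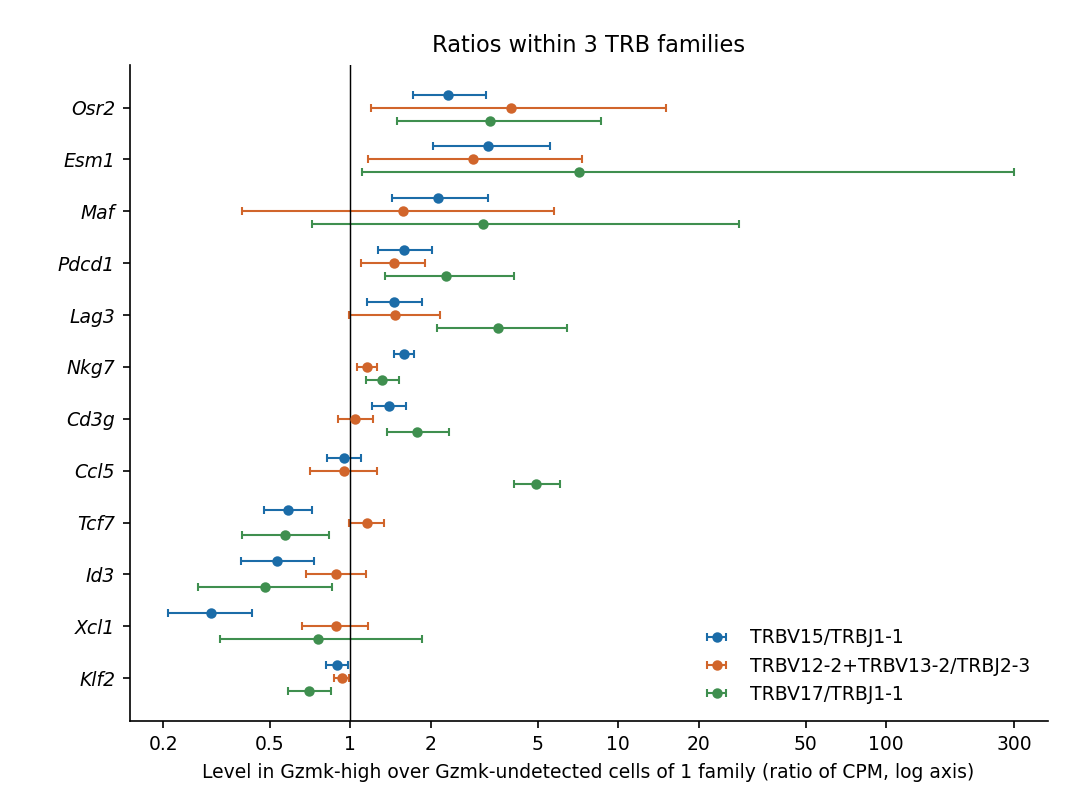
Ratio of the level in Gzmk-high cells to that in Gzmk-undetected cells of the same TRB family (x axis, ratio of CPM on a log scale) for 12 genes in TRBV15/TRBJ1-1 (blue), TRBV12-2 and TRBV13-2/TRBJ2-3 (orange) and TRBV17/TRBJ1-1 (green); bars are 95% exact intervals for counting error. Osr2, Esm1, Pdcd1 and Nkg7 lie above 1 in all 3 families, Ccl5 in the third, and Tcf7 and Xcl1 lie near 1 in the second family.

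Taken as a whole, 518 cells carried the TRBV15/TRBJ1-1 chain, of which 295 were high, 104 had 1 UMI and 119 were undetected. Of 923 genes counted within the family, 48 (5.2%) were called higher in high cells and 13 (1.41%) lower. Among 919 genes counted both within and outside the family, on cells that do not overlap, 44 were called higher within it and 7 outside it. These are 4.79% and 0.762% of the 919. Shared were Cd7, Ctdp1, Ctla2a, Id2 and Tprg, which are 11.4% of the former and 71.4% of the latter, but outside the family Cd7, Id2 and Ctla2a were at 1.05, 0.986 and 0.483 with families weighted equally. Ctdp1 and Tprg are named here after their values were seen. With 13 genes called lower within and 1 outside, the overlap of lower genes could not be read.

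The undetected cells of this family matched its label less well than the high cells did. The chain uses the constant region gene Trbc1, and Trbc1 took 88.0% of the Trbc1 and Trbc2 UMIs in the RNA library of high cells (87.3 to 88.7), 82.2% in cells with 1 Gzmk UMI and 71.8% in undetected cells (69.9 to 73.8), against 29.4% in undetected cells outside the family. The median number of contig UMIs behind the chain was 23, 18 and 12 in the same order, and 5.08%, 6.73% and 16.0% of the cells held a second productive TRB. By contig UMIs, 1 of 12 cells with 1 to 3 was high, 16 of 68 with 4 to 9 (23.5%, 14.1 to 35.4), 93 of 171 with 10 to 19 (54.4%, 46.6 to 62.0) and 185 of 267 with 20 or more (69.3%, 63.4 to 74.8). The Trbc1 share went from 38.8% to 90.9% and Mvd from 0 to 385 CPM over the same bins. Cells under 10 contig UMIs thus looked less like the family in receptor transcripts and in Mvd alike.

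**Figure D5:**
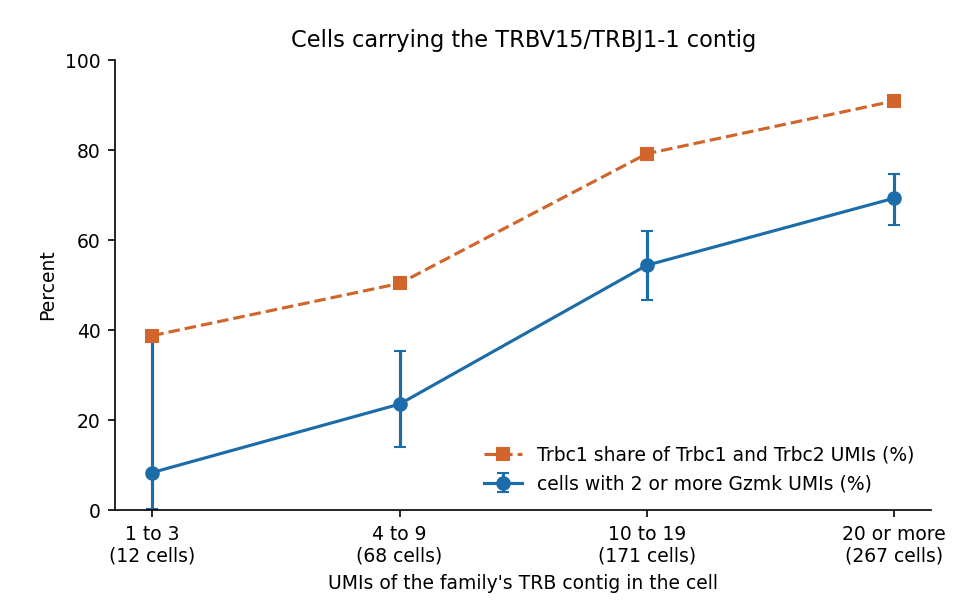
Cells that carry the TRBV15/TRBJ1-1 chain, grouped by the number of UMIs behind its contig (x axis); the y axis gives the percent of cells with 2 or more Gzmk UMIs (blue, with 95% Clopper-Pearson intervals) and the Trbc1 share of Trbc1 and Trbc2 UMIs in the RNA library (orange). Both run upward, from 8.33% to 69.3% and from 38.8% to 90.9%.

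With the family held to cells with a single TRB of at least 10 contig UMIs, a restriction chosen after seeing these data, 266 high and 64 undetected cells remained, with Trbc1 shares of 89.5% and 86.0%. There 29 of 695 genes (4.17%) were called higher and 9 (1.29%) lower. The Osr2 ratio was 1.61 (1.18 to 2.24) in place of 2.54 (1.88 to 3.51), Esm1 2.12 (1.30 to 3.67) in place of 3.67, and Mvd 1.84 (1.31 to 2.65) in place of 3.06. Tcf7 was at 0.858 (0.648 to 1.15) in place of 0.554 (0.457 to 0.673), and Id3 at 0.936 (0.598 to 1.52) in place of 0.548 (0.407 to 0.741). Xcl1 stayed low at 69.2 against 223 CPM (0.310, 0.202 to 0.481). In the 2571 cells without a productive TRB, the Trbc1 share was 51.7% in high and 32.8% in undetected cells. Other families use Trbc1 too, among them TRBV17/TRBJ1-1. The share therefore does not tell how many family members that group holds.

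Cells rich in effector transcripts were more common among Gzmk-high cells outside the family, and most Ccl5 UMIs lay in few cells. Cells with at least 3 of 10 effector markers were 13.2% of high cells there (9.54 to 17.7) and 5.69% of undetected cells (4.39 to 7.23), and 10.8% and 3.39% with cells thinned to 2000 UMIs. The median thinned Ccl5 count was 0 in both classes: 35 of 287 high cells (12.2%) had 10 or more and held 88.1% of its UMIs, against 31 of 1090 undetected cells (2.84%) with 63.2%. Without the cells with at least 3 effector markers, a set that includes these genes and was chosen after seeing the data, 249 high and 1028 undetected cells remained. The Ccl5 ratio was then 3.17, Ccl3 0.306, Ccl4 0.2937 and Gzma 0.918, where with them they were 5.50, 4.72, 4.10 and 17.4. Pdcd1 was at 1.095, Lag3 at 1.08, Nkg7 at 1.14, Prf1 at 1.11, Id2 at 1 and Tcf7 at 0.975. Osr2 was at 5.68, Esm1 at 6.43, Eomes at 1.41, Xcl1 at 0.656 and Il7r at 0.656.

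The genes that lie next to Gzmk were examined because Esm1 and Gzma share its neighbourhood on chromosome 13 (GRCm38: Gzmk at chr13:113171630-113180965, Gzma at chr13:113093824-113100981 and Esm1 at chr13:113209659-113218104). Esm1 starts 28694 bp and Gzma ends 70649 bp from Gzmk, with Gzmk between them. Both were higher in high cells, as given above. Farther genes within 500 kb were closer to level: Mtrex, an RNA helicase of the nuclear exosome, at 60.1 against 62.4 CPM (0.964, 0.817 to 1.13), the helicase Dhx29 at 39.9 against 34.7 CPM (1.15, 0.932 to 1.41), and the sorting nexin Snx18 at 62.6 against 44.4 CPM (1.41, 1.19 to 1.67) over all cells and 39.2 against 44.8 CPM outside the family (0.875, 0.592 to 1.26). The rarer Slc38a9 was lower in high cells, at 6.18 against 9.83 CPM (22 and 79 UMIs). Plpp1 was higher, at 1.97 against 0.747 CPM, on 7 and 6 UMIs.

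Both promoters are shown because Esm1, the nearest gene to Gzmk with counts in the matrix, was higher in the Gzmk-high class of each of the 3 families compared. The sequences run 250 bases before to 50 bases after the RefSeq gene start (GRCm38.p6) on the strand of the gene, Gzmk on the minus strand at chr13:113180916-113181215 and Esm1 on the plus strand at chr13:113209409-113209708. Capitals mark matches to a T-box motif (GGTGTGA) or a TCF/LEF motif (CTTTGA), searched on both strands.
Gzmk: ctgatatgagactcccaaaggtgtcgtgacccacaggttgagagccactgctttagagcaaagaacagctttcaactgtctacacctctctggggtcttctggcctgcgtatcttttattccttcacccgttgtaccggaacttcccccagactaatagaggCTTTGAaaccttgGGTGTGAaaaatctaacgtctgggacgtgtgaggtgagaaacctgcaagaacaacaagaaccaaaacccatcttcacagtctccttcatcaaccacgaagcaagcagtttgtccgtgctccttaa
Esm1: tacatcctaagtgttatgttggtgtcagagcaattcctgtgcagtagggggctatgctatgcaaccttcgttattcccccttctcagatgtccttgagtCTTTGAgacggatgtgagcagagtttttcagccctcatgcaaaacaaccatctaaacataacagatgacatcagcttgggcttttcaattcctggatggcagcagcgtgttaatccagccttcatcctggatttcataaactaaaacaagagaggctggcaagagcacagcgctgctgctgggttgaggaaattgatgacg

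The Gzmk window held 1 T-box match, which begins at position -75 from the gene start and is present in 3.98% of 32851 promoters, and 1 TCF/LEF match at -88, present in 16% of them. The Esm1 window held a TCF/LEF match at -151 and no T-box match. Neither held these letters for Runx (TGTGGT, 16.8% of promoters), NFAT (GGAAAA, 23.4%), AP-1 (TGANTCA, 7.81%) or MAF (TGCTGAC, 4.67%). A match is a description of the letters and not of binding.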

How the data were processed

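The deposited matrix holds UMI counts per gene and barcode for 20794 genes; the authors' processing, per the submitters' processing notes, names cutadapt 1.17, STAR 2.6.1a, featureCounts 2.0.1 and GRCm38, with no role or order given. The deposited receptor table gives contig UMI counts; no source used here names its assembler. From these counts, cells and classes were taken as described, with no doublet caller run and no cells removed as doublets. UMIs were summed per class in Python 3.11.15 with numpy 2.4.6, scipy 1.17.1 and pandas 2.3.3, and divided by the total UMIs of the class. A class at 0 was set to 3 counts, which makes a ratio a bound; no ratio was formed where both classes had 3 or fewer. The summing and the ratios were tested on simulated data. Total depth per class ran from 94015 (1 class of 1 family) to 8034621 UMIs, which limits the precision of rare genes. The members and gene lists were chosen with earlier results of these data known. Named genes are those of 18 lists, the neighbours of Gzmk, and, in each comparison, the 15 highest and 10 lowest genes past the fold, leaving out receptor, immunoglobulin, haemoglobin, mitochondrial and unnamed genes. Alternatives varied depth, thresholds, thinning, family, denominator and cells left out. A few genes that these rules name, or that called lists hold, are not reported here.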

Additional observations from a re-analysis of the deposited data

How the results depend on the processing

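With 1 library of each kind no replicate could be left out, and no paired analysis was possible because no groups of samples are compared. The share of Gzmk-high cells was 23.14% as reported, 16.45% with cells thinned to 2000 UMIs, 13.5% at 3 or more Gzmk UMIs, 28.19% in cells of at least 3000 UMIs, 17.49% from 1000 UMIs, 21.72% without cells with 3 or more effector markers, 16.76% outside the TRB family, 19.05% in all cells not of it and 56.95% within it. Over all cells the 142 higher and 100 lower genes became 84 and 50 in cells of at least 3000 UMIs, 37 and 48 outside the family, 48 and 13 within it, 64 and 52 with 3 families weighted equally, 269 and 215 at 100 UMIs per gene, 63 and 26 at 500, and 34 and 18 at 2-fold; 153 were lower at 3 or more Gzmk UMIs. Outside the family the 37 higher and 48 lower genes became 80 and 86 at 3 or more Gzmk UMIs, 59 and 94 in cells of at least 1000 UMIs, 100 and 76 with cells lacking a TRB added, 142 and 217 at 100 UMIs per gene, 9 and 6 at 500, and 6 and 7 at 2-fold; the lower count was 85 against cells with 0 or 1 Gzmk UMI, 17 in cells of at least 3000 UMIs and 22 with 2 families weighted equally. Other alternatives left these counts within 1.5-fold.

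Of 38 gene ratios, 462 of 642 alternative values over all cells lay within the counting interval of the reported ratio, 174 moved beyond it and 6 crossed 1; outside the family 478 of 570 stayed, 83 moved and 9 crossed. Over all cells those that crossed were Ccl5 within the family (0.985), Ccl3 (0.858) and Ccl4 (0.753) without effector-marker cells, Ctla2a (0.817) and Cd74 (1.08) with families weighted equally, and Icos outside the family (0.9998). Outside the family they were Ccl3 (0.306), Ccl4 (0.2937), Gzma (0.918) and Id2 (1) without effector-marker cells, and Ccl4 (0.574), Ctla2a (0.483), Id2 (0.986), Prss12 (1.47) and Cd74 (3.30) with families weighted equally. The set of effector markers includes Ccl3, Ccl4, Ccl5 and Gzma, so those cells were chosen in part on these genes; otherwise the cause was not tested. Leaving out effector-marker cells or the second Gzmk-rich family, and the stricter family label, were chosen after seeing the data. Genes under 200 UMIs over both classes were not counted, which limits the list results within the family more than outside it.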
